A study of Homo sapiens with 2 samples.

Results

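Distal peaks of the transcription factor NRF1 that carried only degenerate antioxidant response elements (AREs) were examined in HCT116 cells under proteasome inhibition. The ARE was read as the 9 bases TGACNNNGC or TGAGNNNGC, in which N is any base and the 3 open bases are positions 5 to 7. A peak belonged to the class if its centre lay more than 2 kb from every transcription start site (TSS), if it held at least 1 ARE on either strand, and if no ARE in it had T, C and A at the open positions (TGACTCAGC or TGAGTCAGC, called the full ARE here). The rule selected 888 of the 5678 peaks on chromosomes 1 to 22, X and Y (15.6%), and 888 of the 4139 distal peaks (21.5%, 95% Wilson interval 20.2 to 22.7). The list held 5683 peaks in all, and 5 on other contigs were left out. No peak of the class contained undetermined bases, so that every member was searched in full.

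HCT116 cells are an established human line from a colorectal carcinoma. MG132, a peptide aldehyde, blocks the proteasome. The cells had been kept in MG132 at 1 µM for 16 h, fixed in formaldehyde and immunoprecipitated with an antibody against NRF1, and 1 such library had a deposited peak list. An input library from cells under the same treatment was not analysed here, and neither untreated cells nor cells lacking NRF1 entered any comparison. Each peak has a start, an end and a score, which MACS writes as 10 times the negative log10 of its p-value. With 1 library there are no replicates, the read depth is unknown, and every interval given below covers counting error over peaks only.

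NRF1, encoded by NFE2L1, is a cap'n'collar transcription factor that is held at the endoplasmic reticulum and rapidly degraded in unstressed cells. It accumulates in the nucleus when the proteasome is inhibited, pairs with small MAF proteins and binds AREs. The TGAC or TGAG part of the element resembles a site for AP-1, the dimer of JUN and FOS proteins that binds TGAGTCA or TGACTCA, and the full ARE contains that AP-1 sequence within itself. NRF1 is unrelated to nuclear respiratory factor 1, which shares its abbreviation and binds a different, palindromic sequence.

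The sequences of the peaks that head the class are given first, because they show what a degenerate element looks like in its surroundings. Each line holds the ARE nearest to the peak centre in capitals with 15 bases on either side, read 5′ to 3′ on the strand of the element from hg19, and the coordinates are those of the printed bases. The first 5 lines are the 5 peaks with the highest scores.
TKT upstream, chr3:53304248-53304286, minus strand: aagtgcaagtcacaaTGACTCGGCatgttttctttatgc
ALDH3A1 upstream, chr17:19656336-19656374, minus strand: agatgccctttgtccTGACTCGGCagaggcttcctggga
CNBP upstream, chr3:128930875-128930913, minus strand: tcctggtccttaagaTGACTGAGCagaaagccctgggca
STX18-AS1 intron, chr4:4764701-4764739, minus strand: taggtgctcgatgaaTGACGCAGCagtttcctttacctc
LMOD3 upstream, chr3:69192907-69192945, plus strand: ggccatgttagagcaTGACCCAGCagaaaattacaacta
In all 5 the fourth base is C, 2 of the 3 open bases equal those of the full ARE, and the element is followed by A.

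The next 2 lines add peaks that rank among the 5 highest scores when the nearest element must lie within 10 bp of the centre.
TBC1D22A upstream, chr22:47150218-47150256, minus strand: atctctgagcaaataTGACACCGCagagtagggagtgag
CRACD intron, chr4:56995819-56995857, plus strand: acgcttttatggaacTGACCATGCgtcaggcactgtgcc
The CRACD element keeps 0 of the 3 open bases of the full ARE, although it lies 1 bp from the centre of a peak with a score of 290.15.

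The last 2 lines show the highest-scoring peaks for TAA and AGA, which are among the 3 commonest combinations of open bases.
CATSPERB intron, chr14:92080687-92080725, minus strand: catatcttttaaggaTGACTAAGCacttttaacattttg
IQGAP2 upstream, chr5:75668795-75668833, plus strand: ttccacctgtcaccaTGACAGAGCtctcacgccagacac
The CATSPERB element is again followed by A, whereas the IQGAP2 element is followed by T and lay 212 bp from the centre of its peak. An AP-1 sequence lay 13 bp from the centre of the IQGAP2 peak and 53 bp from that of the CATSPERB peak.

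The centre of the strongest peak of the class is shown in full, because it sits by TKT, the transketolase of the pentose phosphate pathway. These are the central 200 bp on the plus strand of hg19 with the element, read on the minus strand as TGACTCGGC, in capitals as its complement.
TKT upstream, chr3:53304173-53304372, plus strand: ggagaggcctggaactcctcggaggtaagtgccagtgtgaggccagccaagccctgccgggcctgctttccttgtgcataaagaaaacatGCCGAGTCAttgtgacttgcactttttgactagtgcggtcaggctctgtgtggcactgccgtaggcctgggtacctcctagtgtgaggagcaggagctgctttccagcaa
The peak held 2 degenerate AREs in its 730 bp, and no AP-1 sequence lay in these 200 bp.

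The TKT peak (chr3:53303908-53304637) had a score of 661.04, rank 55 of the whole list, and its centre lay outside genes, 14205 bp upstream of TKT. The second, chr17:19655638-19656819, scored 569.64 and held 5 degenerate AREs, with its centre 3973 bp upstream of ALDH3A1, an aldehyde dehydrogenase. Its nearest element lay 126 bp from the centre, against 6 bp in the TKT peak. The third, chr3:128930557-128931245, scored 510.76 and lay in an intron of a gene that is not annotated as protein-coding, 28136 bp upstream of CNBP, which encodes a zinc finger protein that binds nucleic acids. Its element was 7 bp from the centre, and an AP-1 sequence lay 38 bp from the centre. The fourth, chr4:4764318-4765063, scored 477.8 in an intron of STX18-AS1, and the fifth, chr3:69192543-69193239, scored 458.47 at 20708 bp upstream of LMOD3, which encodes an actin nucleator of muscle. These 5 peaks held between 1 and 5 degenerate AREs, and the nearest element was within 50 bp of the centre in 4 of them.

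The lowest scores of the class were 50 at chr1:181110631-181111070, 50.08 at chr16:81177482-81178128 in an intron of PKD1L2, and 50.09 at chr17:12432786-12433110. The last of them held TGACACAGC 52 bp from its centre, the commonest element of the class. At the distance threshold, the included peak nearest to a TSS was chr7:130530328-130530724, with a score of 65.36 at 2042 bp. The degenerate-only peak just left out was chr20:31177077-31177479, with a score of 83.55 at 1997 bp.

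Most peaks of the class held a single degenerate element. Of the 888 peaks, 595 (67.0%) held 1 copy, 224 (25.2%) held 2 and 69 held 3 or more, which gave 1357 elements in all. The peak with the most copies, chr22:49779706-49782241, held 49 in 2536 bp and scored 410.15. A second, chr2:92289725-92291792, held 13 in 2068 bp and scored 75.51, and chr7:157732976-157733495 in an intron of PTPRN2 held 11 in 520 bp and scored 290.1. Peaks with 3 or more copies had a median width of 558 bp, compared with 465 bp for peaks with 1 copy. The widest peak of the class, chr16:46403300-46410191, was 6892 bp long, scored 146.26 and held 1 copy.

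A degenerate ARE is a short sequence that also occurs by its base composition alone, and its background was read from flanks of the same width placed 2 kb from both edges of each distal peak. Of 8219 flanks without a peak, 30.5% (29.5 to 31.5) held degenerate AREs only, 1.07% held a full ARE and 68.4% held none. Among distal peaks the shares were 21.5%, 66.3% (2746 peaks) and 12.2% (505 peaks). The share of degenerate-only regions was thus lower in peaks than in flanks over their whole width. With elements searched in the central 200 bp only, the direction turned, with 18.8% of distal peaks (17.66 to 20.04) and 13.3% of flanks (12.58 to 14.05). Among regions that lacked the full ARE, a degenerate ARE was present in 888 of 1393 peaks (63.7%, 61.2 to 66.2) and in 2509 of 8131 flanks (30.9%, 29.9 to 31.9). Near TSSs, within 2 kb, 592 of 1539 peaks (38.5%) were degenerate-only.

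The rule asks for an element anywhere in the peak, and its place was therefore free to vary. The element nearest to the centre lay a median of 33 bp from it in the class (quartiles 16 and 70 bp), compared with 110 bp (53 and 178 bp) in flanks with degenerate AREs only. It was within 50 bp of the centre in 571 of 888 peaks (64.3%) and in 602 of 2509 flanks (24%), a difference of 40.3 percentage points (95% Newcombe interval 36.7 to 43.8). These central 50 bp on both sides made up 21.9% of the width of the peaks and 19.6% of that of the flanks. Within 10 bp of the centre the shares were 17.5% and 5.46% (difference 12, 9.45 to 14.8). The file gives no summit, and the centre is the midpoint of each peak.

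**Figure D1:**
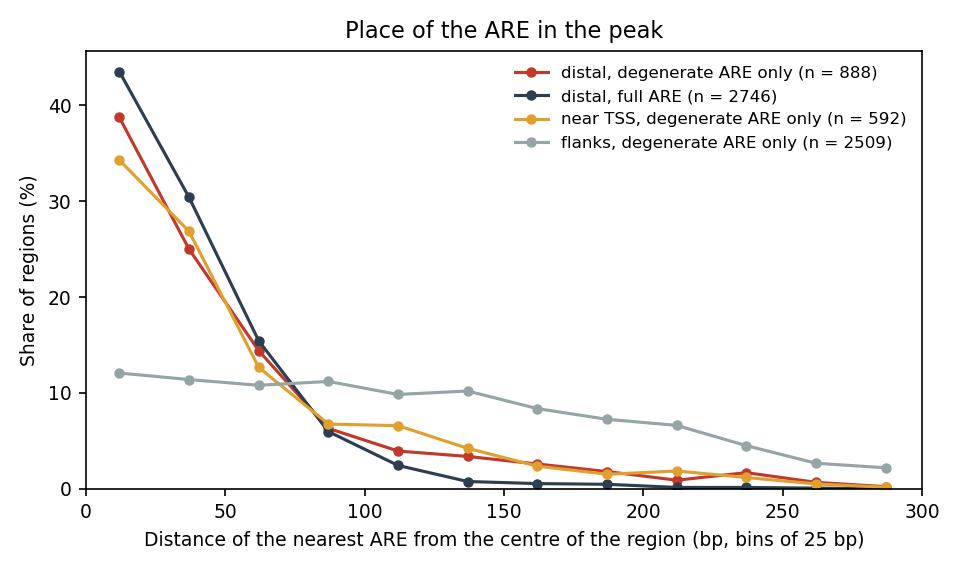
Distance of the ARE nearest to the centre of the region (bp, horizontal) against the share of regions (%, vertical) in bins of 25 bp, for distal degenerate-only peaks, distal full-ARE peaks, degenerate-only peaks near a TSS and degenerate-only flanks; 1 point stands for 1 bin. The first bin holds 38.7% of the class, 43.5% of full-ARE peaks and 12.1% of flanks, and the flank curve falls slowly out to 300 bp.

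The full ARE was closer to the centre than the degenerate one. In the 2746 distal full-ARE peaks its median distance was 29 bp, and it was within 50 bp in 74.6% (members minus full ARE −10.3 percentage points, −13.9 to −6.78). The gap was similar within 100 bp, where 95.5% of full AREs and 84.7% of degenerate AREs lay (−10.8, −13.4 to −8.43). Degenerate-only peaks near a TSS had a median of 39 bp and a share of 61.5% within 50 bp, and the difference from the distal class was 2.82 points with an interval that held 0 (−2.18 to 7.85). When the search was restricted to the central 200 bp, the gap to the full ARE narrowed to −1.94 (−5.39 to 1.31), whereas the gap to the flanks remained above 0.

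The open bases of the nearest element departed from those of the flanks. An element with 2 of the bases T, C and A in place was nearest in 414 peaks of the class (46.6%), one with 1 of them in 322 (36.3%) and one with none of them in 152 (17.1%). In flanks the shares were 16.8%, 44.7% and 38.5%, and for 2 bases in place the difference was 29.8 percentage points (26.2 to 33.4). Degenerate-only peaks near a TSS had 41.9%, 36.3% and 21.8%, and their share with 2 bases in place differed from that of the distal class by 4.73 points with an interval that held 0 (−0.441 to 9.84).

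**Figure D2:**
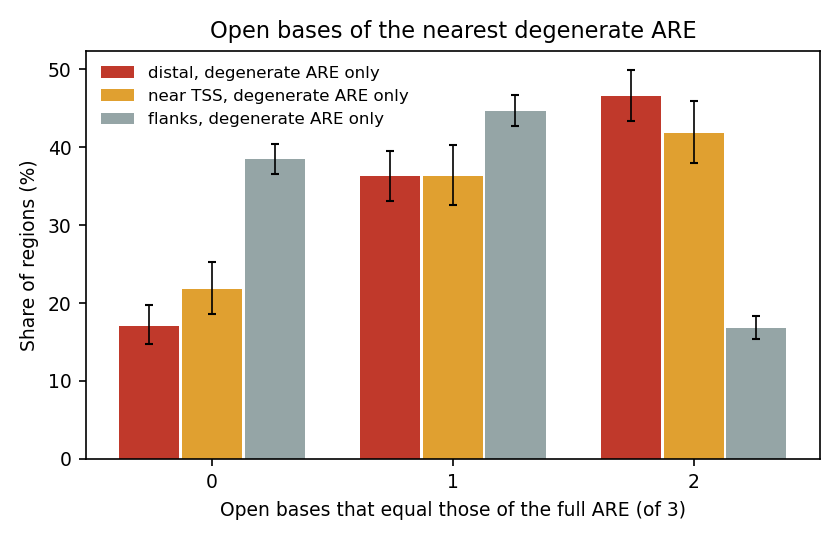
Share of regions (%, vertical) whose nearest degenerate ARE has 0, 1 or 2 of its 3 open bases equal to T, C and A (horizontal), for distal degenerate-only peaks, such peaks near a TSS and flanks. Bars are shares and lines their 95% Wilson intervals; at 2 bases the distal class stands at 46.6% and the flanks at 16.8%.

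Base by base, the fourth position, which the rule leaves as G or C, was C in 75.7% of the class and 43.4% of flanks (difference 32.2, 28.7 to 35.6), and in 80.7% of the full AREs. Position 5 was T in 38.7% against 18.6% (20.1, 16.6 to 23.7). Position 6 was C in 38.5% against 24.6% (13.9, 10.3 to 17.6). Position 7 was A in 52.3% against 35.2% (17.1, 13.3 to 20.9), so that each of the 4 positions leaned toward TGACTCAGC. Elements nearer to that form were also more often central, with 70.8% of those with 2 open bases in place within 50 bp of the centre, 61.5% of those with 1 and 52.6% of those with 0. The same 3 shares in flanks were 20.6%, 25.6% and 23.6%.

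The bases just outside the element were not part of the rule either. Among the 571 peaks whose element lay within 50 bp of the centre, the base before it was A in 63.4% and the base after it was A in 76.5%. In the degenerate-only flanks these were 19.6% and 40.7%, with differences of 43.7 (39.4 to 47.9) and 35.8 (31.7 to 39.6) percentage points. In distal full-ARE peaks A preceded the element in 63.4% and followed it in 78.9%, close to the shares of these 571 peaks. Neither the flanks nor the full-ARE peaks were limited by the place of the element, and the whole class was not counted. Of the elements printed above, those of TKT, CNBP, STX18-AS1, LMOD3, TBC1D22A and CATSPERB have A on both sides. The ALDH3A1 element has A only after it, the IQGAP2 element only before it, and the CRACD element on neither side.

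The class was not made of 1 sequence. The nearest elements took 96 different forms, with 54 of the 63 possible combinations of open bases, and 16 forms were each held by a single peak. The 5 commonest forms, with a tie for the last of them, covered 331 peaks (37.3%). TGACACAGC was the nearest element in 146 peaks (16.4%) and in 47 flanks (1.87%), a difference of 14.6 percentage points (12.2 to 17.2), and it lay within 50 bp of the centre in 70.5% of these peaks. TGACTAAGC followed with 69 peaks (7.77%) against 0.558% of flanks (7.21, 5.58 to 9.17), and 79.7% of them had it within 50 bp. These 2 forms differ from the full ARE at a single open base each.

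TGACTCGGC, the element of the TKT and ALDH3A1 peaks, was nearest in 40 peaks (4.50%) and in 2 flanks (0.0797%). It too differs from the full ARE at a single open base. TGACAAAGC was nearest in 28 peaks (3.15%) against 1.59% of flanks (1.56, 0.440 to 2.99). TGACTCTGC was nearest in equally many peaks, against 1.47% of flanks (1.68, 0.569 to 3.10). TGACAGAGC ran the other way, with 48 peaks (5.41%) against 8.13% of flanks (−2.73, −4.45 to −0.760). Near TSSs TGACACAGC was again the commonest of these forms, in 11.3% of the degenerate-only peaks. TGACATTGC, with none of the 3 open bases in place, was held by 8 peaks (0.901%) and by 26 of all 8219 flanks (0.316%). The flanks of that count were not chosen for holding an ARE, whereas the class was. As the nearest element it was found in 3 peaks (0.338%) against 0.957% of degenerate-only flanks (−0.619, −1.13 to 0.103). The highest-scoring peak that held it was the one at chr2:92289725-92291792 with 13 copies. Counted by open bases over both forms of the fourth base, ACA was that of the nearest element in 160 peaks, TAA in 84, AGA in 55, TCG in 50 and AAA in 36.

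The 146 TGACACAGC peaks had scores from 50.09 to 392.28, with a median of 76.1, and the highest was the RXRA peak, in an intron of the gene for the retinoid X receptor alpha. The element was preceded by A in 64.4% of them and followed by A in 85.6%. The 47 flanks with the same nearest element had A before it in 23.4% and after it in 40.4%, so that the surroundings differed by 41.0 (25 to 53.2) and 45.2 (29.5 to 58.8) percentage points although the element was identical. At position 13, past its end, A was present in 60.3% of these peaks (52.2 to 67.8). It was present there in 40.4% of the 47 flanks (27.6 to 54.7), an overlapping interval, and in 24.2% of full-ARE peaks. The TGACTAAGC peaks ranged in score from 50.4 to 436.22, with a median of 84.15, and the TGACTCGGC peaks from 50.09 to 661.04, with a median of 87.07.

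The 3 peaks with TGACACAGC that follow lay near genes of the lists described further on, and they were chosen for printing after their values were seen.
ULK1, chr12:132345220-132345258, plus strand: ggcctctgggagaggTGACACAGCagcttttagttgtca
FTL, chr19:49471114-49471152, minus strand: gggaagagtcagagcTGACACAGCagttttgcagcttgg
BAG3, chr10:121405770-121405808, minus strand: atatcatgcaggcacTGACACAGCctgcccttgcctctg
The ULK1 and FTL elements are followed by A and the BAG3 element by C, and in none of the 3 is the base before the element A.

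Because short elements can sit in repeated DNA, the 25 bases around each nearest element were counted as exact copies on both strands of all chromosomes. They occurred once in 88.6% of the class, in 88.5% of full-ARE peaks and in 75.2% of degenerate-only flanks. They occurred 10 or more times in 53 peaks of the class (5.97%), more than in full-ARE peaks (3.50%, difference 2.47, 0.903 to 4.34) and less than in flanks (16.8%, −10.9, −12.9 to −8.60). The repeated surroundings were concentrated in TGACAGAGC, with 23 of 48 peaks (47.9%) and up to 10504 copies. This form occurs in many copies of the Alu element, the most abundant short interspersed repeat of the human genome. Among TGACACAGC peaks, 18 of 146 (12.3%) had 10 or more copies, and among TGACTAAGC and TGACTCGGC peaks 0 had. The 25 bases around each printed element occurred once. An exact count treats a diverged repeat copy as unique, so a single occurrence does not place an element outside repeats. Whether reads from repeats contributed to these peaks was not tested.

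Peaks of the class could hold an AP-1 sequence as long as it was not part of a full ARE. TGAGTCA or TGACTCA occurred in the central 200 bp of 235 peaks (26.5%, 23.7 to 29.5) and in 3.07% of the flanks of these peaks (difference 23.4, 20.5 to 26.5). The share was lower than in the 505 distal peaks without any ARE (41.2%, −14.7, −19.9 to −9.56) and higher than in degenerate-only peaks near a TSS (14.4%, 12.1, 7.96 to 16.1). Over all peaks it was 68.9%, since full AREs contain the sequence by construction. Within 50 bp of the centre AP-1 was present in 17% of the class, 1.53% of its flanks and 31.1% of peaks without an ARE.

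The 653 peaks without an AP-1 sequence in the central 200 bp had the more ARE-like elements. Their nearest ARE lay within 50 bp of the centre in 66.8%, against 57.4% of the 235 peaks with AP-1 (9.32, 2.14 to 16.6). It had 2 open bases in place in 50.8% against 34.9% (15.9, 8.58 to 22.9), and it was TGACACAGC in 19.1% against 8.94% (10.2, 5.02 to 14.6). The peaks with AP-1 were nevertheless above the flanks on both counts, by 33.5 percentage points (26.8 to 39.8) for place and by 18.1 (12.1 to 24.5) for open bases. Where both sequences were present, AP-1 lay nearer to the centre in 127 peaks and the ARE in 108, with median distances of 38 and 36 bp. AP-1 was sought only in the central 200 bp, whereas the ARE could lie anywhere in the peak, which tilts this count toward AP-1.

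**Figure D3:**
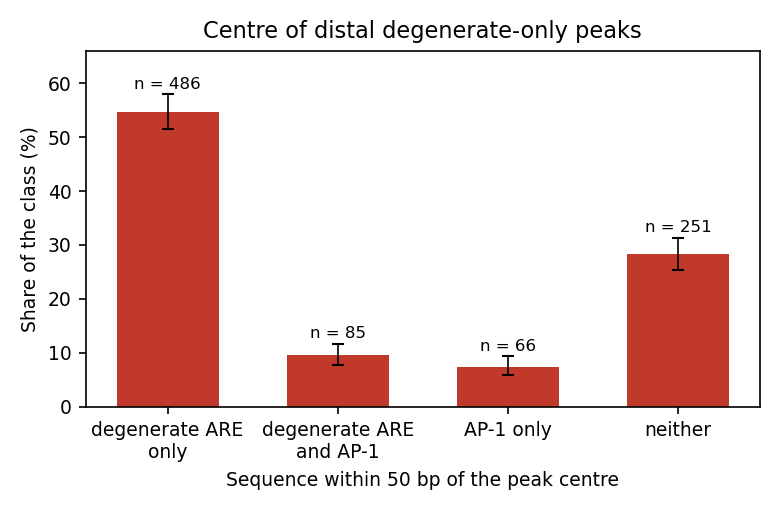
Share of the 888 distal degenerate-only peaks (%, vertical) by the sequence found within 50 bp of the peak centre (horizontal); bars are shares with 95% Wilson intervals and the number of peaks above each. A degenerate ARE alone accounts for 54.7% and neither sequence for 28.3%.

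Within 50 bp of the centre, 486 peaks (54.7%) held a degenerate ARE alone, 85 (9.57%) an ARE and AP-1, 66 (7.43%) AP-1 alone and 251 (28.3%) neither. More than 1 in 4 peaks of the class therefore had no sequence of either kind at its centre, and belonged to it through an element farther out.

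All 8-base sequences of the central 200 bp were also counted. The class was chosen for holding an ARE and its flanks were not, so that part of the excess of any sequence that lies within an ARE was fixed by the rule, and these counts are a description. The 8 bases TGACACAG, on either strand, were found in 157 peaks (17.7%) and in 25 flanks of these peaks (1.42%), GACACAGC in 148 against 1.31% of flanks, and ACACAGCA in 130 against 1.82%. The last of them runs past the element into the A that follows it. The AP-1 sequence with one more base, ATGACTCA, was found in 113 peaks (12.7%) against 0.511% of flanks, and ATGACACA in 108 (12.2%) against 0.909%. In the 653 peaks without AP-1, TGACACAG was present in 132 (20.2%).

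Of 17 motifs searched on both strands in the central 200 bp, 4 had a share in the class above that of its flanks, 0 below, and 13 had a difference whose interval held 0. Besides AP-1 these were the MAF-binding part of the longer MAF recognition element, TGCTGA (22% against 13.1%, difference 8.90, 5.82 to 12.1, and 58.2% over all peaks), the TEAD sequence GGAATG (18.9% against 9.94%, 8.98, 6.12 to 12, 16.3% over all peaks) and the C/EBP-ATF element TGATGCAA (1.35% against 0.568%, 0.783, 0.0368 to 1.81, 1.07% over all peaks). An AP-1 sequence that starts at the last 3 bases of TGCTGA is, on the other strand, part of a full ARE followed by A. The rule keeps that arrangement out of the class. TGCTGA was found in 43.6% of distal peaks without an ARE, above the class (−21.6, −26.7 to −16.5). TEAD factors act with YAP at enhancers, and their sequence was found at similar shares in full-ARE peaks (16.6%, 2.31, −0.519 to 5.34) and in peaks without an ARE (17.4%, 1.49, −2.82 to 5.58), with both intervals holding 0.

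The other motifs were spelled CACGTG (E-box), CCGGAAG (ETS), CTTTGAT (TCF/LEF), TGTTTAC (FOX), AGATAA for the GATA factors, TGTGGTT (RUNX), GGGCGG (the GC box of KLF and SP factors), CCAAT (NF-Y), TGACGTCA (CRE), CAAAGTCC (HNF4), GAANNTTC (heat shock) and CATGTC (part of the p53 site), and their shares in the class lay between 0.338% (CRE) and 21.6% (NF-Y). Over all peaks the same motifs had shares from 0.335% (CRE) to 23.8% (NF-Y). The GC box was present in 3.49% of the class and in 31.9% of degenerate-only peaks near a TSS (−28.4, −32.4 to −24.5). RUNX was present in 4.50%, compared with 7.72% in distal peaks without an ARE (−3.22, −6.13 to −0.657). The motif of nuclear respiratory factor 1 was found in 0 of 888 peaks, which allows a share of up to 0.431% (Wilson), and in 0.106% of all peaks.

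**Figure D4:**
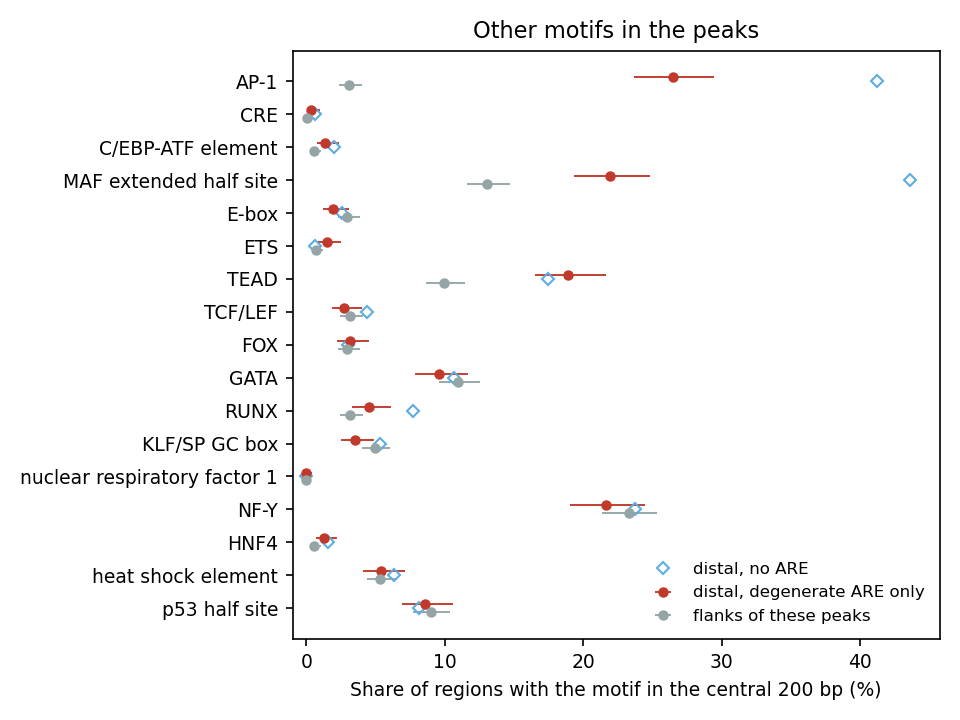
Share of regions with each of 17 motifs in the central 200 bp (%, horizontal; 1 motif per line) for distal degenerate-only peaks and their flanks, with 95% Wilson intervals, and for distal peaks without an ARE as open diamonds. AP-1 stands at 26.5% in the class and 3.07% in its flanks, and most other motifs have overlapping intervals.

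The score of a peak was not used by the rule. Scores of the class ran from 50 to 661.04, with a median of 78.3 and quartiles of 60.5 and 109.6, compared with medians of 101.6 in distal full-ARE peaks and 70.3 in distal peaks without an ARE. A score of at least 100 was reached by 263 peaks of the class (29.6%), 50.9% of full-ARE peaks (−21.3, −24.7 to −17.6) and 22.4% of peaks without an ARE (7.24, 2.43 to 11.8). A score of at least 200 was reached by 6.53%, 18.6% and 3.37%. Degenerate-only peaks near a TSS scored higher than the distal class, with a median of 94.9 and 46.6% at 100 or more (−17, −22 to −12).

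**Figure D5:**
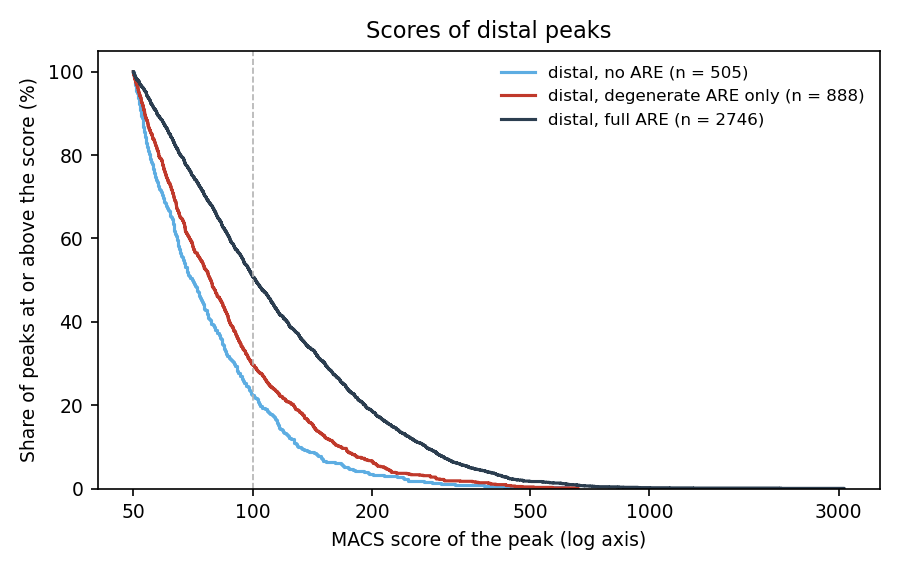
Share of peaks (%, vertical) at or above a given MACS score (horizontal, log axis) for distal peaks with degenerate AREs only, with a full ARE and without an ARE; the dashed line marks a score of 100. At that score the curves stand at 29.6%, 50.9% and 22.4%.

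Width moved with the score, with medians of 473 bp in the class, 512 bp in full-ARE peaks and 442 bp in peaks without an ARE. Within the narrowest, middle and widest tertile of width (bounds 447 and 548 bp), the class stayed below the full-ARE peaks, by −3.31 (−6.00 to −0.216), −14.1 (−19.9 to −7.70) and −19.8 (−26.1 to −14.0) percentage points. Against peaks without an ARE the 3 differences were 0.228, −2.90 and 6.35, and each interval held 0. The difference from peaks without an ARE was therefore not detected at equal width.

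Inside the class, a central element did not go with a higher score. Peaks with the nearest element within 50 bp of the centre reached 100 in 25.9%, and those with it farther away in 36.3% (−10.4, −16.8 to −4.03). The 136 peaks with the element more than 100 bp away had a median score of 92.9 and a median width of 532.5 bp, against 76.1 and 453 bp for the 155 peaks with it within 10 bp. By the sequence near the centre, the share at 100 or more was 24.9% with an ARE alone, 31.8% with both, 36.4% with AP-1 alone and 36.3% with neither. An ARE alone differed from neither by −11.4 points (−18.5 to −4.38), with median widths of 461 and 487 bp. Elements with 2 open bases in place and with 0 had shares of 28.0% and 25.7% (2.36, −6.18 to 10.1), and peaks without AP-1 and with it 28.3% and 33.2% (−4.86, −11.9 to 1.87). Both of these intervals held 0.

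The class was spread over the genome in shares close to those of the other distal peaks. Its centres lay in introns in 59.5%, in exons in 4.39% and outside genes in 36.1%, and the share outside genes was 36.9% in full-ARE peaks (−0.778, −4.37 to 2.90) and 34.5% in peaks without an ARE (1.69, −3.56 to 6.83). The median distance to a TSS was 11285 bp (2042 to 395975 bp), compared with 12512 and 11164 bp. More than 50 kb from a TSS lay 10.6% of the class, 10.4% of full-ARE peaks and 11.1% of peaks without an ARE, and both differences had intervals that held 0. With TSSs of protein-coding genes only, the difference from full-ARE peaks became −4.31 (−7.56 to −0.951), and the interval no longer held 0. At shorter ranges the class lay slightly nearer to TSSs, with 53.7% beyond 10 kb against 57.5% of full-ARE peaks (−3.82, −7.59 to −0.0728). Beyond 5 kb lay 76.6%, against 81.2% of peaks without an ARE (−4.61, −8.90 to −0.0994). The median GC content of the central 200 bp was 46.5%, against 44.5% in full-ARE peaks and in the flanks of the class, 44% in peaks without an ARE and 56.75% in degenerate-only peaks near a TSS. By chromosome, the class made up between 11.6% (5 of 43, chromosome X) and 31.8% (27 of 85, chromosome 19) of the distal peaks, apart from chromosome Y with 0 of 3.

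Genes of 6 lists drawn from the biology of NRF1 were then asked for a peak of the class inside the gene or within 50 kb of one of its TSSs. Of all 20136 protein-coding genes, 1136 (5.64%) had one, and 4297 (21.3%) had a distal peak of any kind. The counts are descriptions, and nearness does not assign a peak to a gene.

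Of 33 proteasome genes, the best known targets of NRF1, 0 had a peak of the class and 5 had any distal peak. Of 33 autophagy and lysosome genes, 6 (18.2%) had one, and 9 had any distal peak. ULK2, a kinase that starts autophagosome formation, shared the ALDH3A1 peak with the score of 569.64, 21008 bp from its TSS. The peak by CTSL, which encodes the lysosomal protease cathepsin L, scored 200.92, with TGAGTGTGC 20 bp from its centre. ULK1, the paralogue of ULK2, had a peak with a score of 191.33 at 33860 bp from a TSS, and its printed TGACACAGC lay 68 bp from the centre. The other 3 were ATG16L1 with 131.12, WIPI1 with 103.89 and the autophagy receptor gene TAX1BP1 with 78.72. Their peaks lay 3491, 45906 and 5058 bp from a TSS, in that order. The nearest element lay more than 100 bp from the centre in the ATG16L1 and WIPI1 peaks and 59 bp from it in the TAX1BP1 peak.

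Of 30 antioxidant and detoxification genes, 8 (26.7%) had a peak of the class and 15 any distal peak. The highest was that of TKT (661.04), followed by those of AKR1B10, an aldo-keto reductase (223.57), UGDH, which makes UDP-glucuronate (128.37), and FTL, the ferritin light chain (110.2). The nearest element lay 229 bp from the centre in the AKR1B10 peak and 82 bp from it in the UGDH peak. FTL's peak was 2540 bp from its TSS, with the printed TGACACAGC 27 bp from the centre. BLVRB, biliverdin reductase B, had a peak with a score of 97.22 at 2173 bp. SLC7A11, the cystine transporter, had 2 peaks with scores of 84.01 and 56.7, and the peaks by the thioredoxin reductase gene TXNRD1 and the glutathione reductase gene GSR scored 71.04 and 53.87. The nearest element lay more than 100 bp from the centre of the first SLC7A11 peak and 24 bp from that of the second.

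Of 13 genes for cap'n'collar, BACH and MAF factors and KEAP1, 3 had a peak of the class. MAFA had one with a score of 229.3 at 24080 bp from a TSS. KEAP1, the adaptor that marks NRF2 for degradation, had one with 73.99 at 38022 bp, and MAFK had one with 64.22 at 3361 bp. Of 17 heat shock and chaperone genes 2 had one, DNAJB1 with 120.98 and BAG3 with 51.58. Of 14 AP-1 and ATF genes 0 had one, and 3 had any distal peak. Over the 6 lists there were 20 pairs of a gene and a peak of the class, of which 11 had a score of 100 or more and 9 a lower one.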

How the data were processed

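NRF1 was immunoprecipitated from HCT116 cells after 16 h in MG132 at 1 µM. The authors sequenced this NRF1 library with single-end reads and mapped them to hg19. They deposited its peaks with a score, the −log10 of the MACS p-value multiplied by 10. The series also holds an input library, which has no peak list. The submitters' processing notes list bcl2fastq, CASAVA 1.8.2, Bowtie2 2.2.6 and MACS 1.4.2. The peak calling settings, the treatment of duplicate reads and the control library are not given in the sources used here.

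Coordinates are on hg19, counted from 1. Sequence and gene positions came from the same build, with 220784 distinct TSSs of all transcripts of GENCODE v44lift37. The 5 peaks on unplaced or unlocalized contigs were left out. No peak was removed here for lying in repeats or in regions prone to artefacts. Flanks had the width of their peak, began 2 kb beyond each edge, and held no peak and no undetermined base. Distances to an ARE were taken from the midpoint of the region to that of the element. Shares have 95% Wilson intervals and differences of shares 95% Newcombe intervals, given in percentage points as the first group named minus the other. A difference whose interval holds 0 is reported as not detected. In all, 80 differences between groups, 68 over motifs, 96 over forms of the element and 54 over open bases were computed, and the intervals were not adjusted for their number. Peaks of 1 library are not replicates of a condition.

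The peaks named were the 5 with the highest scores, the 5 highest with an element within 10 bp of the centre, the 3 lowest, the 3 with the most copies, the highest for each of the 3 commonest combinations of open bases, the highest that held TGACATTGC and those near genes of the 6 lists. The widest peak and the printing of 3 TGACACAGC peaks near list genes were added after their values were seen. The sequences of some named peaks are not reported here. Members, gene lists and motifs were chosen with earlier results of these data known. The genome file does not mark repeats, and counts of the surrounding 25 bases in the genome, chosen after seeing the data, took their place, as were the splits of the class by AP-1 and by the place of its element. The searches, classes and intervals were tested on simulated data. Computations ran in Python 3.11.15 with pandas 2.3.3, scipy 1.17.1, numpy 2.4.6, statsmodels 0.14.6, pysam 0.24.0 and, for plots, matplotlib 3.10.9. The alternatives were only peaks with a score of at least 100, a score of 200 as the limit for the compared share, elements in the central 200 bp only, distances from the peak edge, 5 kb in place of 2 kb, protein-coding TSSs, flanks 5 kb away, other windows, tertiles of width and 20 kb as far.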

Additional observations from a re-analysis of the deposited data

How the results depend on the processing

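Of 95 values recomputed for 15 results, 77 kept their direction and their side of 0, stayed within their interval or, for counts of motifs, stayed within 1.5 times. The share of the class among distal peaks (21.5%) became 14.8% with peaks scoring at least 100 and 18.8% with elements in the central 200 bp only, and that of degenerate-only flanks (30.5%) became 36.9% and 13.3%. The number of motifs that differed from the flanks (4) became 2 with a score of at least 100, 5 beyond 5 kb and 7 with protein-coding TSSs. With central elements only, the difference in place from the full ARE became −1.94 and the difference in score from peaks without an ARE −2.77. Within the narrowest, middle and widest tertile of width the latter was 0.228, −2.90 and 6.35. The share outside genes against the full ARE became 0.849 with a score of at least 100. The share far from a TSS against peaks without an ARE became 4.33 with a score of at least 100, 0.364 with central elements, 0.165 beyond 5 kb and 0.691 with 20 kb as far. Against the full ARE it became −4.31 (−7.56 to −0.951) with protein-coding TSSs and −0.842 with 20 kb as far. All these differences had intervals that held 0 except the one whose interval is given. The causes were not tested. The share of scores of at least 100 cannot be compared among peaks chosen for that score, and no repeat overlap was computed. With 1 library, an unknown depth and no analysed control, no value has a replicate error, and how far a peak reflects NRF1 itself cannot be told apart from other sources of enrichment.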
